A study of Mus musculus with 12 samples.

Results

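KD2 is 1 of 2 lines of mouse R1 embryonic stem cells in which Set, a histone chaperone and inhibitor of the phosphatase PP2A, was knocked down. Its differentiation with retinoic acid was described here from 4 arrays, those labelled RA KD2 and ESC KD2, of 12 in the series. The arrays were chosen by their labels alone. The RA KD2 cells had 4 days in 1 µM retinoic acid, in medium with 10% serum and no leukemia inhibitory factor (LIF, the cytokine that holds mouse stem cells undifferentiated). ESC KD2 cells grew in 15% serum and 1000 U/ml of LIF. Retinoic acid, serum and LIF changed together between these states, and the effect of each cannot be told apart from that of the others. The same pair of states was measured in a second knockdown line, KD1, and in a line with a scrambled control, with 2 arrays a group. The labels' protocol calls the knockdown and control cells clones, so an effect of the knockdown and a trait of the clone cannot be told apart. Values are log2 levels of a 1-colour gene array, normalized by the submitters, and 1 unit is a 2-fold difference.

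Retinoic acid enters cells, is carried by binding proteins and is oxidised by enzymes of the Cyp26 family. In the nucleus it binds retinoic acid receptors, which sit with retinoid X receptors on response elements and activate genes when the ligand is present. In mouse embryonic stem cells it is a classical differentiation signal: it turns on its own degrading enzymes, receptor genes and the front part of the Hox clusters, while the pluripotency network is shut down.

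The second arrays of the KD2 groups went against their labels. The array labelled ESC KD2 replicate 2 correlated at 0.998 over 19938 genes with RA KD2 replicate 1 and at 0.962 with ESC KD2 replicate 1. The array labelled RA KD2 replicate 2 correlated at 0.993 with ESC KD2 replicate 1 and at 0.960 with RA KD2 replicate 1. Both still had a level of Kdm5d, a histone demethylase gene, like those of the other KD2 arrays and below those of the scrambled arrays. It read 5.85 and 5.65 in the RA-labelled KD2 arrays and 5.51 and 5.67 in the ESC-labelled ones, against 7.48 to 7.70 in the 4 scrambled arrays. KD1 had 5.57 to 5.80, so Kdm5d does not part KD2 from KD1. The cells are clones, so its level cannot be tied to the knockdown. Whether these arrays were exchanged was not tested beyond these values.

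The KD2 arrays are therefore read in 3 ways. RA replicate 1 minus ESC replicate 1 is the one used for every call and for every fold change unless another is named. Its spread came from the scrambled and KD1 groups in a limma fit of 10 arrays that left out both KD2 replicate 2 arrays, so each lone KD2 array was assumed to vary like those. The 4 arrays as labelled are the second reading. The third takes the array labelled ESC KD2 replicate 2 minus the array labelled RA KD2 replicate 2, called the exchanged pair below. It is given as values with no p, since the exchange rests on the measured levels. Where 2 levels are listed for a state they stand in the order of the replicate numbers as labelled.

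RA KD2 cells differed broadly from ESC KD2 cells. At an adjusted p below 0.05, 2203 of 19938 genes rose (11.0%) and 1887 fell (9.46%). Of these, 1104 rose and 741 fell by at least 2-fold. The counts of the gene lists below are to be read beside the 11.0% and 9.46% of all genes. The share of calls that were higher was 53.9%, and it was 39.8% once each array was centred on its own median, a step that moved the median of all genes by -0.12. In the exchanged pair 2183 of the 2203 genes that rose had the same sign (99.1%), with a median of 0.97 against 1.00 in replicate 1. So did 1880 of the 1887 that fell (99.6%), with medians of -0.70 and -0.87. The arrays were exchanged because of these same levels, so the shared signs are no independent check of the calls.

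**Figure D1:**
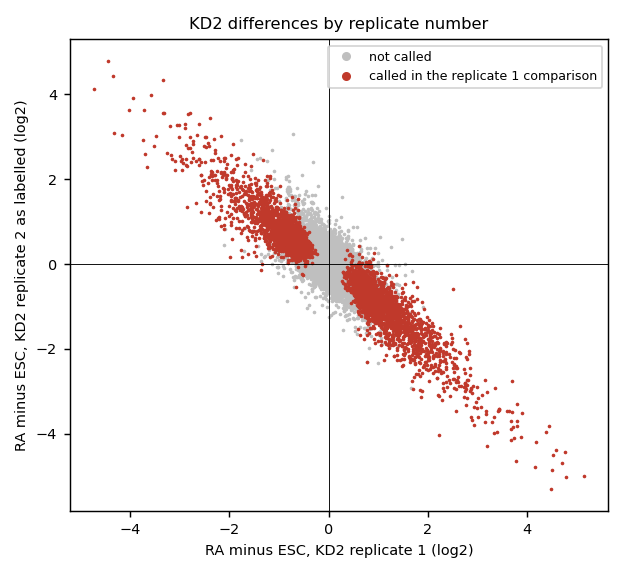
Each point is 1 of 19938 genes: the RA minus ESC difference of KD2 replicate 1 (x axis, log2) against that of KD2 replicate 2 as labelled (y axis, log2), with called genes in red. The points run along a falling line, with a correlation of -0.88 over genes.

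The 4 arrays averaged by their labels showed almost none of this. In the fit of all 12 arrays as labelled, 0 genes were called by limma in KD2 (0.00%), with 344 at an unadjusted p below 0.05 (1.73%). By that mean 3 genes were at least 2-fold higher (0.0150%) and 0 at least 2-fold lower (0.00%). With the replicate 2 arrays exchanged, 884 genes were at least 2-fold higher in both pairs (4.43%) and 509 at least 2-fold lower (2.55%). Replicate 1 alone gave 1184 (5.94%) and 786 (3.94%), and the exchanged pair alone 1147 (5.75%) and 733 (3.68%).

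The knocked-down gene was checked by 4 probe sets. A pair of bright ones carries the annotation of both Set and BC085271. Of these, 10470893 read 11.70 and 11.99 in the RA-labelled KD2 arrays, against 12.27 and 12.29 in scrambled RA. It read 12.15 and 11.87 in the ESC-labelled KD2 arrays, against 12.93 and 12.71 in scrambled ESC. All 4 KD2 arrays were thus below every scrambled array of either state. Between the states, 10470893 and the other bright one, 10587486, stood at -0.45 and -0.56 in KD2 replicate 1. In the replicate 2 pair as labelled they stood at 0.12 and 0.23. The less bright 10470907, annotated to Set alone, stood at -0.95 in replicate 1 and 0.83 in that pair. Neither probe set annotated to Set alone parted the lines. The lower KD2 level was seen only where the annotation also names BC085271. Probe set 10470907 read 7.15 in ESC KD2 replicate 1, against 7.35 and 6.90 in scrambled ESC. In RA KD2 replicate 1 it read 6.20, above the 5.83 and 6.085 of scrambled RA. Probe set 10470905, annotated to Set alone, did not part the lines: it read 6.79 in RA KD2 replicate 1 against 6.68 and 6.45 in scrambled RA, and 8.54 in ESC KD2 replicate 1 against 8.82 and 8.39 in scrambled ESC. Between the states it fell by 1.76 (SE 0.23, adjusted p = 0.00137) in KD2, and the replicate 2 pair as labelled stood at 1.003.

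Sequences that match a retinoic acid response element stand near the starts of 2 strongly raised genes and are shown first. The element searched is the DR5 retinoic acid response element: a pair of 6-base half-sites (A or G, then G, then G or T, then TCA) in the same direction, 5 bases apart, on either strand. The RefSeq promoter windows used (GRCm38.p6) run from 250 bases before to 50 bases after a gene's start. It was found in 32 of 32851 windows (0.0974%), and in 11 of the 15614 measured genes with a window. Of 1705 genes that rose, 3 had it (0.176%): Rarb, Cyp26a1 and Ppbp. It stood in 0 of 1484 genes that fell and in 8 of 12425 that were not called (0.0644%). The 250 bases before the starts of Rarb and Cyp26a1 follow, 5′ to 3′ on the gene's strand, with both half-sites in capitals. The Cyp26a1 element lies on the opposite strand, so its half-sites read there as their reverse complement.
Rarb, chr14:16575477-16575726, minus strand: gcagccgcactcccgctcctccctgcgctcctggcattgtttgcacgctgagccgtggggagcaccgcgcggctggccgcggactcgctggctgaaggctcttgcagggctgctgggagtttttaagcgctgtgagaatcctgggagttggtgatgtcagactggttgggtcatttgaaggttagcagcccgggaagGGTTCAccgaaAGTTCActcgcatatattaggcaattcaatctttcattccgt
Cyp26a1, chr19:37697558-37697807, plus strand: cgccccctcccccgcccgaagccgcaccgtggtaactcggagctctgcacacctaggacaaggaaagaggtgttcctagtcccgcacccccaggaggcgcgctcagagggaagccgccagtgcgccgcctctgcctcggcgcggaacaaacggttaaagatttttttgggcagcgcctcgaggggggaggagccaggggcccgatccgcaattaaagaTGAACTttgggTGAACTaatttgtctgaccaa

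The elements themselves, each read 5′ to 3′ on the strand that holds it, are set beside 3 matches in genes that were not called, to show that letters of the same kind stood before genes that differed in what they did.
Rarb, from position -53 (position -1 is the base before the gene's start), same strand as the gene: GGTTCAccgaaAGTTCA
Cyp26a1, from position -32, opposite strand: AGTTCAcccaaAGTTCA
Ppbp, from position -246, opposite strand: AGGTCAgacctAGGTCA
Blvrb, from position -19, opposite strand: AGTTCAaagccAGTTCA
Gm1043, from position -32, same strand: GGGTCAccccaAGTTCA
Prss27, from position -149, same strand: AGTTCAgggccGGGTCA
Ppbp, a platelet chemokine named here for its match, rose by 1.86 (adjusted p = 0.0230). Blvrb stood at -0.97 (adjusted p = 0.0646), Gm1043 at 0.03 (adjusted p = 0.938) and Prss27 at 0.16 (adjusted p = 0.580). A match is a description of letters and not a measured binding site.

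Rarb, the retinoic acid receptor that is itself a retinoic acid target, was among the most raised genes. It read 11.17 and 6.27 in the RA-labelled KD2 arrays, against 6.39 and 11.28 in the ESC-labelled ones. RA replicate 1 and the array labelled ESC replicate 2 were thus the high ones, and no such split is visible by label. It rose 27.4-fold in replicate 1 (log2 4.78, SE 0.22, adjusted p = 2.42e-05), and the exchanged pair differed by 5.02. Cyp26a1, the enzyme that clears retinoic acid, read 11.58 and 6.83 in the RA-labelled arrays, against 7.05 and 11.34 in the ESC-labelled ones. It rose 23.0-fold (log2 4.52, SE 0.26, adjusted p = 3.27e-05; exchanged pair 4.51).

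**Figure D2:**
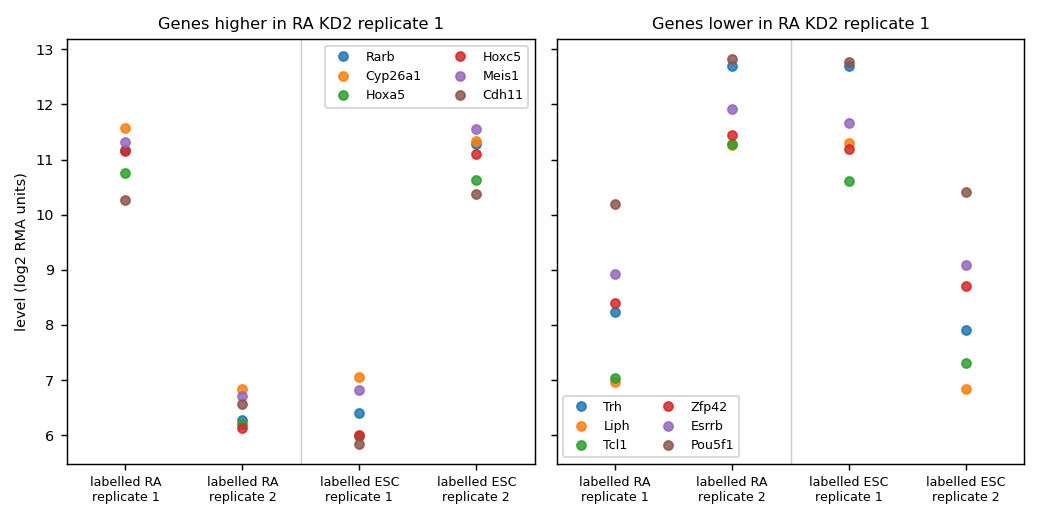
Levels (y axis, log2 units) of 6 raised and 6 lowered genes in the 4 KD2 arrays (x axis, by label). In both panels RA replicate 1 and the array labelled ESC replicate 2 sit together, and ESC replicate 1 sits with the array labelled RA replicate 2: Rarb at 11.17 and 11.28 against 6.39 and 6.27.

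Retinoid handling genes moved as a mixed group. Of 30 measured genes of the retinoid pathway, 16 rose and 1 fell, with a median of 1.08 (exchanged pair 1.32) against 0.01 over all genes. Among ligand-making enzymes, Aldh1a2, which oxidises retinal to retinoic acid, rose by 3.80 (SE 0.41, adjusted p = 0.000546). Dhrs3, which reduces retinal back to retinol, read 11.25 in RA replicate 1 against 7.81 in ESC replicate 1 and rose by 3.44 (SE 0.23). Stra6, the vitamin A transporter of the cell membrane, rose by 3.20 and Crabp2, the binding protein that hands retinoic acid to its receptors, by 2.87. Genes that make, store and clear the ligand were thus raised side by side.

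Other retinoid targets and orphan receptors rose by similar amounts. Nr2f2 read 11.20 and 6.798 in the RA-labelled KD2 arrays, against 6.49 and 11.49 in the ESC-labelled ones (log2 4.71, SE 0.23, 26.2-fold). Nr2f1, its close relative among the COUP nuclear receptors, rose by 3.40 (exchanged pair 3.97). Stra8, a retinoic acid target best known for starting meiosis in germ cells, rose by 3.70 (SE 0.52, adjusted p = 0.00171), with 2.75 in the exchanged pair. Tshz1, a zinc finger factor of trunk patterning, rose by 3.89. The other receptors differed less: chosen after their values were seen, Rara stood at 0.39 (adjusted p = 0.110) and Rarg at -0.71 (adjusted p = 0.221).

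Hox genes, which pattern the body axis and lie in 4 clusters, rose according to their place in the cluster. Of 37 measured, 25 rose and 0 fell, with a median of 1.03. Of 14 genes of paralogue groups 1 to 5, 13 rose, with a median of 2.54 (exchanged pair 2.69). Of 11 genes of groups 6 to 9, 10 rose, with a median of 1.03 (exchanged pair 0.83). Of 12 genes of groups 10 to 13, 2 rose, with a median of 0.11 (exchanged pair -0.07).

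The clusters also differed among themselves in these counts. All 9 measured Hoxb genes rose (median 2.31), as did 7 of 10 Hoxa genes (1.05), 6 of 9 Hoxc genes (2.36) and 3 of 9 Hoxd genes (0.36). Hoxc5 had the largest difference of all genes named here. It read 11.15 and 6.13 in the RA-labelled KD2 arrays, against 6.002 and 11.11 in the ESC-labelled ones (35.5-fold, SE 0.36 on the log2 scale, adjusted p = 7.08e-05). Hoxa5 rose by 4.77 (SE 0.19), Hoxb2 by 4.58 (SE 0.23) and Hoxc8 by 4.19 (SE 0.22), with 4.43, 4.39 and 4.19 in the exchanged pair.

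**Figure D3:**
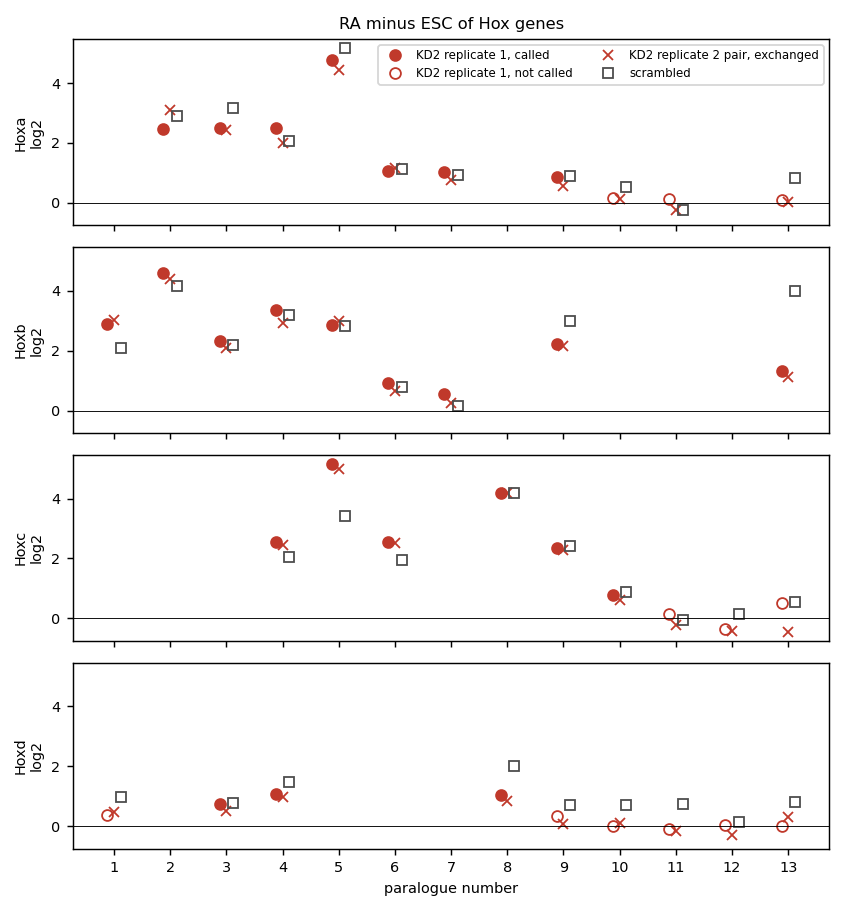
RA minus ESC differences (y axis, log2) of 37 Hox genes by paralogue number (x axis) in the 4 clusters: KD2 replicate 1 (red, filled where called), the exchanged KD2 pair (red crosses) and scrambled cells (grey squares). The KD2 values fall off beyond paralogue 9, and Hoxb13 stood at 1.33 in KD2 against 3.98 in scrambled cells.

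TALE proteins are the DNA-binding partners of Hox proteins, and their genes rose with them. Of 10 measured, 6 rose and 1 fell. Meis1 read 11.32 and 6.71 in the RA-labelled KD2 arrays, against 6.81 and 11.56 in the ESC-labelled ones, and rose 22.7-fold (log2 4.51, SE 0.22). Meis2 rose by 4.49 (SE 0.35), Pknox2 by 2.10 and Meis3 by 1.40. All had the same sign in the exchanged pair, at 4.85, 5.30, 2.21 and 1.70.

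Pluripotency genes fell broadly. Of 36 measured genes of the naive state, 31 fell and 0 rose, with a median of -1.95 (exchanged pair -1.83). Their mean level was 9.74 and 11.68 in the RA-labelled KD2 arrays, against 11.56 and 9.85 in the ESC-labelled ones. The other 5 were not called.

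Pou5f1, the central transcription factor of pluripotency, read 10.20 and 12.83 in the RA-labelled KD2 arrays, against 12.77 and 10.42 in the ESC-labelled ones. It fell 5.91-fold (log2 -2.56, SE 0.34, adjusted p = 0.00131). Esrrb and Zfp42, factors of the naive state, fell by 2.74 (SE 0.36) and by 2.80 (SE 0.42). Tcl1, a cofactor of the kinase Akt, fell by 3.58 and Nr0b1, an orphan receptor that binds Oct4, by 3.02. Fgf4 and Tdgf1, a growth factor and a Nodal coreceptor, fell by 2.90 and by 2.87.

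Further naive genes that fell were Dppa3 (-2.80), Eras (-2.62) and Gdf3 (-2.58). Nanog and Sox2, chosen after their values were seen, fell less: Nanog read 10.90 in RA replicate 1 against 12.41 in ESC replicate 1 (log2 -1.51, SE 0.41, adjusted p = 0.0306), and Sox2 10.95 against 12.47 (log2 -1.52, SE 0.36, adjusted p = 0.0175). Both stayed well above the median of all values, 7.22, in RA replicate 1. Of 18 genes of the formative and primed states, 11 fell and 0 rose, with a median of -1.59. Foxd3, a factor of the transition from the naive state, fell by 2.95, Otx2, which marks the epiblast, by 3.35 (SE 0.60), the Ets factor Etv4 by 2.54 and the epithelial factor Grhl2 by 2.35.

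The largest decreases were found outside these lists. Glod5 read 5.48 and 9.90 in the RA-labelled KD2 arrays, against 10.20 and 5.77 in the ESC-labelled ones (log2 -4.73, SE 0.60, adjusted p = 0.00110). Trh, the thyrotropin-releasing hormone, read 8.24 and 12.69 in the RA-labelled arrays, against 12.69 and 7.90 in the ESC-labelled ones (log2 -4.45, SE 0.23). Liph, a lipase that makes lysophosphatidic acid, fell by 4.34, and Platr8, a long noncoding RNA, by 4.33. In the exchanged pair Liph stood at -4.44 and Platr8 at -3.10.

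Germ cell and oocyte genes were among them too. Nlrp9b fell by 4.16 (SE 0.64) and Zp3, a protein of the egg coat, by 3.66 (SE 0.53), with -3.04 and -2.30 in the exchanged pair. Zfp459 fell by 4.03, Lrrc34 by 3.95, Rasgrp2, an exchange factor for Rap1, by 3.74, Epp13 by 3.72 and Calml4 by 3.71. The fatty acid importer Slc27a2 fell by 3.52 and the neuronal filament gene Ina by 3.48. Of 18 genes of the germ cell list, 5 fell and 2 rose, against 9.46% and 11.0% of all genes. Sycp3, of the meiotic chromosome axis, fell by 2.84, and Prdm1 and Stk31 fell by 1.55 and by 1.41, while Taf7l rose by 1.29.

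Genes of mesenchyme rose together. Of 20 genes of the mesenchymal transition, 18 rose and 2 fell, with a median of 1.42 (exchanged pair 1.59). Cdh11, a cadherin of mesenchymal cells, read 10.27 and 6.57 in the RA-labelled KD2 arrays, against 5.83 and 10.38 in the ESC-labelled ones (log2 4.44, SE 0.38, adjusted p = 0.000206). Nrp1, a coreceptor for semaphorins and VEGF, rose by 4.16 (SE 0.19), Edil3, an integrin ligand, by 3.64 and the homeobox gene Prrx1 by 2.38. Of 20 epithelial junction genes 4 fell and 2 rose, and the 2 lie near the 11.0% of all genes that rose. Esrp1, a splicing factor of epithelia, fell by 3.26 (SE 0.21), Epcam fell by 1.60 and the desmosomal cadherin Dsc2 rose by 1.14.

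Matrix and smooth muscle genes gave a like picture. Of 23 fibroblast and matrix genes, 13 rose and 1 fell. Fbn2, a fibrillin of embryonic microfibrils, rose by 3.80 (SE 0.31) and Tnc, the matrix protein tenascin C, by 3.79 (SE 0.30). Ecm1, another matrix protein, read 12.44 and 8.52 in the RA-labelled KD2 arrays, against 8.06 and 12.46 in the ESC-labelled ones (log2 4.38). The receptor Pdgfrb rose by 2.49, and the carboxypeptidase Cpm by 3.89. Of 13 smooth muscle genes, 7 rose and 0 fell, among them Myl9 (2.04), Tpm2 (1.34), Cnn1 (1.28) and Cald1 (1.20). Changes in the numbers of cells of a type and in RNA per cell cannot be told apart in bulk arrays.

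Mesoderm genes rose more often than they fell. Of 24 measured, 12 rose and 3 fell, with a median of 0.80, against 11.0% and 9.46% of all genes that rose and fell. Osr1, a factor of intermediate mesoderm, read 10.24 and 6.61 in the RA-labelled KD2 arrays, against 6.90 and 10.59 in the ESC-labelled ones (log2 3.34, SE 0.34). Foxc2, of paraxial mesoderm, rose by 3.17 and Wt1, of the kidney and the mesothelium, by 2.64. Named after their values were seen, Eomes (-1.26), Mixl1 (-0.91) and Tcf15 (-1.69) were the 3 that fell.

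Many extraembryonic endoderm genes rose in KD2. Of 32 measured, 20 rose and 1 fell, with a median of 1.17 (exchanged pair 1.20). Gata6, the factor that drives primitive endoderm, read 11.69 and 9.002 in the RA-labelled KD2 arrays, against 9.13 and 11.79 in the ESC-labelled ones (log2 2.57, SE 0.15, adjusted p = 3.93e-05). Plat, the tissue plasminogen activator of parietal endoderm, rose by 3.34 (SE 0.18) and Pdgfra, the receptor that marks primitive endoderm, by 2.67 (SE 0.32). Cubn, an uptake receptor of visceral endoderm, rose by 2.18.

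Neural genes did not move as a group. Of 23 measured, 8 rose and 4 fell, with a median of -0.01 in replicate 1 and 0.12 in the exchanged pair. Over all genes 11.0% rose and 9.46% fell, and the other counts in this paragraph stand beside those shares too. Irx3, a factor of the caudal neural tube and other tissues, rose by 1.61 (SE 0.21), while Neurod1 (-1.88), Stmn2 (-2.36) and Tubb3 (-1.77) fell. Genes were named by the size of their change, and of all called members more rose than fell. The exchanged pair gave -0.32 for Tubb3, a tubulin of neurons, so this fall rests on replicate 1. Among 19 trophoblast genes 7 rose and 3 fell. Gata3 rose by 2.74, Esx1 by 2.04 and Tpbpa by 1.89 (exchanged pair 0.90), and Tfap2c fell by 1.91. Among 17 blood and macrophage genes 1 rose and 4 fell, including Pecam1 (-2.38), Tek (-1.49) and Gata1 (-0.77), of which Pecam1 is also made by stem cells.

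Of 23 genes of Nodal, LIF and FGF feedback 10 fell and 2 rose. The FGF feedback inhibitor Spry4 fell by 3.05 (SE 0.45) and the FGF-driven factor Etv5 by 2.25. Of 16 BMP and Id genes 6 rose and 0 fell: Msx2 rose by 1.87, Bmp7 by 1.78 (exchanged pair 0.55), Bmp2 by 1.73 (exchanged pair 2.67) and Bmper by 1.18. Of 20 Wnt targets and ligands 6 rose and 2 fell, with Lgr5 at 2.08, Wnt5a at 1.59 and Nkd1 at 1.51. Over all genes 11.0% rose and 9.46% fell. The 2 feedback genes that rose and the 2 Wnt genes that fell lie near those shares.

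Growth genes fell by small amounts. Of 25 genes of ribosome biogenesis and Myc targets 18 fell and 0 rose, with a median of -0.74 (exchanged pair -0.52). Mycn fell by 1.41, Rrp9 by 1.39, Rrs1 by 1.26 and Dkc1, of the pseudouridine-forming complex, by 1.26. The exchanged pair gave -0.80 for Rrs1 and -0.77 for Dkc1. Of 27 S-phase genes 14 fell and 0 rose, led by Mcm10 (-1.26), Gins1 (-1.13), Rpa2 (-0.98) and Pola1 (-0.89). Their median was -0.54 in replicate 1 and -0.29 in the exchanged pair, where Mcm10 stood at -0.66, Rpa2 at -0.57 and Pola1 at -0.54. Of 28 G2 and M genes 10 fell and 0 rose, led by the kinase gene Aurka (-0.71), then Espl1 (-0.68), Cenpf (-0.64) and Nusap1 (-0.61).

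Metabolic and stress lists had shares of calls closer to the 11.0% and 9.46% of all genes, so nothing is read from their counts about the lists. Of 24 genes of glycolysis and hypoxia 4 fell and 2 rose: Pfkp fell by 2.49 and Pdk1 by 2.17, while P4ha2 rose by 1.55 and Vegfa by 1.26 (exchanged pair 0.41). Of 16 cholesterol synthesis genes 3 fell and 0 rose, namely Idi1 (-1.17), Lss (-0.87) and Fdps (-0.43). The exchanged pair gave -0.59, -0.37 and -0.25 for these, and a list median of -0.06 against -0.31 in replicate 1. Of 21 p53 targets 3 rose and 1 fell: Fas rose by 1.04, Phlda3 by 0.71 and Ccng1 by 0.44, and Gadd45a fell by 1.03. In the exchanged pair Fas stood at 0.44, Phlda3 at 0.45 and Gadd45a at -0.69. Of 23 interferon genes 3 rose and 3 fell, with Usp18 at 1.95, B2m at 1.43, Oas1a at -1.88 and Oas2 at -0.95.

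Imprinted genes, which are expressed from 1 parental allele and often promote or restrain growth of the embryo, rose. Of 22 measured, 17 rose and 0 fell, with a median of 1.36 (exchanged pair 1.47). Dlk1 read 12.62 and 8.42 in the RA-labelled KD2 arrays, against 9.42 and 12.71 in the ESC-labelled ones (log2 3.20, SE 0.39, adjusted p = 0.000920). The noncoding RNA Airn rose by 2.92 (SE 0.18) and the zinc finger gene Plagl1 by 2.58 (SE 0.21).

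Chromatin genes split. Of 28 genes of DNA methylation and polycomb 11 fell and 6 rose. Dnmt3l and Dnmt3b, of de novo methylation, fell by 1.99 and by 1.89, while Bmi1, a polycomb subunit, rose by 2.02 and Tet3, a dioxygenase of methylcytosine, by 1.86. Of 34 SET partners and histone chaperones 4 fell and 0 rose, near the 9.46% of all genes that fell. Besides Set, counted here by probe set 10470905 alone, they were Nasp (-0.66), Atrx (-0.63) and Prmt5 (-0.49), with -0.32, -0.37 and -0.28 in the exchanged pair.

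**Figure D4:**
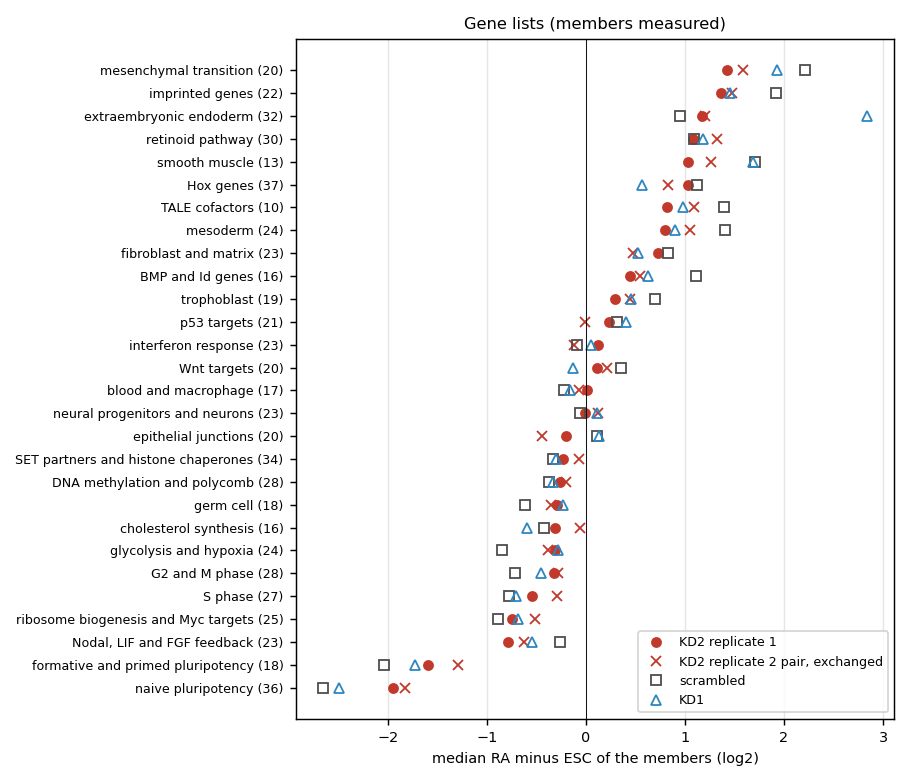
Median RA minus ESC difference (x axis, log2) of each gene list (y axis, members measured in brackets) in KD2 replicate 1, the exchanged KD2 pair, scrambled cells and KD1. The naive list stood at -1.95 in KD2 against -2.65 in scrambled cells and -2.49 in KD1, and the extraembryonic endoderm list at 1.17 against 0.95 and 2.84.

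Many genes of the response changed less in KD2 than in the line they were set against. To keep the choice of genes apart from the comparison, genes were chosen in 1 line and KD2 was set against the other, with each change signed by the choosing line. Of 2566 genes called and changed at least 2-fold in KD1, 1916 changed less in KD2 replicate 1 than in scrambled cells (74.7%), with medians of 1.10 in KD2 and 1.39 in scrambled cells. Of 2802 genes so chosen in scrambled cells, 1731 changed less in KD2 than in KD1 (61.8%), with medians of 1.11 in KD2 and 1.26 in KD1. The exchanged pair gave 76.2% and 62.1%. These shares carry no test, and genes are not independent replicates. The number of calls was also lower, with 2203 and 1887 genes in KD2, against 4342 (21.8%) and 4154 (20.8%) in scrambled cells and 4040 (20.3%) and 4139 (20.8%) in KD1, but KD2 had 1 array a state and the others 2.

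The mean levels of the lists were set beside those of scrambled cells within each state. Naive genes had a mean level of 9.74 in RA KD2 replicate 1 and 9.85 in its match, labelled ESC KD2 replicate 2, against 9.01 and 9.52 in scrambled RA. In ESC KD2 replicate 1 and its match they had 11.56 and 11.68, against 11.70 and 11.67 in scrambled ESC, and only the first lay below. Smooth muscle genes had a mean of 9.78 in ESC KD2 replicate 1 and 9.59 in its close match, labelled RA KD2 replicate 2, against 8.97 and 9.07 in scrambled ESC. Mesenchymal genes stood there at 8.33 and 8.13, against 7.81 in both scrambled ESC arrays. Trophoblast genes stood at 9.04 and 8.93, against 8.41 and 8.60. In RA the smooth muscle list had 10.87 and 10.67 in the same order, within the 11.15 and 10.56 of scrambled RA, and the trophoblast list 9.38 and 9.28, against 9.17 and 9.35. The part of these levels in the size of the response was not tested.

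Single genes were tested for a different response in KD2 than in scrambled cells, which share no array with KD2. The response was higher for 10 genes (0.0502%) and lower for 60 (0.301%). All 10 and all 60 had the same sign in the exchanged pair. That pair was set against the same scrambled arrays as the call, so the shared sign is no independent check. More genes were called, here and against KD1 below, by a fit that took out a replicate difference within each state, as the closing section lists. Of the 60, 57 changed less in KD2 than in scrambled cells, a count that calling them for a lower response favours. In 36 of the 60 the larger part of the difference lay in the RA arrays and in 24 in the ESC arrays. These counts rest on single arrays: 2 and 7 genes were called without RA Scrambled replicate 1, 2 and 14 without either RA KD1 array, 27 were lower without RA Scrambled replicate 2, and 36 and 101 were called without ESC Scrambled replicate 1.

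Hoxb13, the last gene of its cluster, was low in RA KD2 cells. It read 7.42 in RA KD2 replicate 1 and 7.24 in its match, labelled ESC KD2 replicate 2, against 10.29 and 9.86 in scrambled RA. It read 6.09 in ESC KD2 replicate 1 and 6.11 in its match, labelled RA KD2 replicate 2, against 5.96 and 6.23 in scrambled ESC. The response differed by -2.65 (SE 0.28, adjusted p = 0.0117) from that of scrambled cells, all of it in RA. KD1 RA was as low, at 7.02 and 6.92, and KD2 and KD1 were not called different (0.50, adjusted p = 0.508).

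Zim1, an imprinted zinc finger gene, and Mamdc2, a matrix protein, were also low in RA KD2 cells. Zim1 read 10.36 and 10.45 in scrambled RA and 10.56 and 10.75 in KD1 RA. It read 7.90 in RA KD2 replicate 1 and 7.865 in the match of that array, labelled ESC KD2 replicate 2. Its response differed from that of scrambled cells by -2.46 (SE 0.25, adjusted p = 0.0107) and from that of KD1 by -2.99 (adjusted p = 0.00119). Mamdc2 read 6.33 and 6.36 in RA KD2 replicate 1 and its match, the array labelled ESC KD2 replicate 2, against 9.01 and 8.73 in scrambled RA (difference -2.52, SE 0.21, adjusted p = 0.00747). Tbx18, of the epicardium and somites, also differed from scrambled cells in RA (difference -2.42, adjusted p = 0.0349). Its KD2 level of 7.66 in RA replicate 1 was like the 7.84 and 7.54 of KD1 RA, with a difference of 0.01 between the responses (adjusted p = 0.995). Mamdc2 differed from KD1 by -1.02 (adjusted p = 0.0512), which was not called.

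Tgfb2 and Slc40a1 differed in both states. Tgfb2, a growth factor, read 9.15 in ESC KD2 replicate 1 and 8.40 in its match, labelled RA KD2 replicate 2, against 7.44 and 7.58 in scrambled ESC. In RA it read 10.65 in KD2 replicate 1, against 11.89 and 11.82 in scrambled cells. The response differed by -2.85 (SE 0.28, adjusted p = 0.0107), of which 1.64 was a higher ESC level and -1.20 a lower RA level. The exchanged pair gave a difference of -1.96. Slc40a1, the iron exporter ferroportin, stood at 0.03 in KD2 (adjusted p = 0.949) and at 2.79 in scrambled cells. Hs6st2 and Efemp1 were likewise higher in ESC KD2 replicate 1, by 2.09 and by 1.36. Their responses differed from that of scrambled cells by -2.23 and -2.19 (exchanged pair -1.14 and -1.77).

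Genes with a higher response were fewer. Wfikkn1, a secreted binder of GDF proteins, read 10.39 in RA KD2 replicate 1, against 8.88 and 8.70 in scrambled RA and 8.81 and 8.85 in KD1 RA. It rose by 2.65 in KD2, more than in scrambled cells by 1.66 (SE 0.22, adjusted p = 0.0326) and than in KD1 by 1.72 (adjusted p = 0.00732). Lama1, a laminin chain of basement membranes, and Chrna3, a nicotinic receptor subunit, rose by 1.74 and by 1.81 in KD2, and their responses exceeded those of scrambled cells by 1.42 and by 1.46. Chrna3 also exceeded KD1, by 1.64 (adjusted p = 0.0107), whereas Lama1 rose by 3.04 in KD1 and was lower in KD2 by that comparison (difference -1.31, adjusted p = 0.0129). Dnajc5g, Serpinb6c, Tex14 and Slc13a5 stood between -0.42 and 0.31 in KD2, while scrambled cells stood between -3.17 and -1.51. Dnajc5g read 6.02 in ESC KD2 replicate 1, already under the median of all values, 7.22. In ESC, KD2 replicate 1 minus scrambled cells was -3.12 for Dnajc5g, -1.61 for Serpinb6c, -1.24 for Tex14 and -0.715 for Slc13a5. In RA it was -0.275, 0.936, 0.577 and 1.06 for these genes in turn. Of these, Serpinb6c and Slc13a5 were at 0.01 and -0.58 in KD1 and were not called against it (adjusted p = 0.784 and adjusted p = 0.809). Laptm5, a lysosomal membrane protein, fell by 1.64 in KD2 and stood at -1.42 in KD1 and -3.18 in scrambled cells.

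Set beside KD1, the response of KD2 was higher for 47 genes (0.236%) and lower for 289 (1.45%). Of the 289, 263 changed less in KD2 than in KD1, a count that calling them for a lower response favours. Leaving out 1 array at a time moved these counts to between 5 and 109 and between 72 and 437, with the lowest without RA KD1 replicate 2 and the highest without an ESC Scrambled array. Of the extraembryonic endoderm genes, 21 of 32 had a lower response in KD2 than in KD1 and 0 a higher one, against the 1.45% of all genes. The list was chosen with earlier results of these data known.

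Gata6 and Plat differed from both other lines. The Gata6 response was smaller in KD2 than in scrambled cells (difference -2.11, SE 0.19, adjusted p = 0.00747) and than in KD1 (difference -1.86, adjusted p = 0.00306). Its RA level of 11.69 in KD2 replicate 1 lay near the 11.90 of scrambled RA replicate 2, and its ESC level of 9.13 lay above the 7.20 and 7.36 of scrambled ESC. Plat had differences of -1.50 (adjusted p = 0.0372) and -1.74 (adjusted p = 0.00732). Cubn differed from KD1 alone by the test: it read 10.66 in RA KD2 replicate 1, against 12.43 and 12.53 in KD1 RA (difference -3.25, SE 0.23, adjusted p = 0.000718), and against scrambled cells the difference was -0.01 (adjusted p = 0.995).

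In all, 21 genes were called against both lines, 20 of them the same way, 3 higher and 17 lower. Besides Gata6, Plat, Zim1 and Tgfb2 the 17 included Dcn, a matrix proteoglycan and imprinted gene (-2.04 against scrambled cells, -1.36 against KD1), the endocytic adaptor Dab2 (-2.13 and -2.66), the caveolae gene Cav1 (-1.91 and -1.34) and the imprinted gene Peg3 (-1.25 and -1.04). Dab2, Cav1 and Peg3 were named after their values were seen. Imprinted genes had 5 of 22 members with a lower response than in scrambled cells and 0 with a higher one, against 0.301% of all genes.

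Against KD1 the largest lower responses were those of genes raised in KD1. Klb, a coreceptor for FGF hormones, read 8.31 in RA KD2 replicate 1, against 11.10 and 11.05 in KD1 RA and 6.99 and 7.02 in scrambled RA. The kinase gene Ptk6 read 6.82 in RA KD2 replicate 1, against 10.09 and 10.29 in KD1 RA and 6.20 and 6.13 in scrambled RA. KD2 thus lay between the lines for both genes, nearer to scrambled cells. Glipr1 rose by 1.84 in KD2, against 5.58 in KD1, and Fst, the activin antagonist, by 1.53 against 4.78. The growth factor Bmp2 rose by 1.73 in KD2 replicate 1 against 4.22 in KD1, with a difference of -2.50 (SE 0.27, adjusted p = 0.00419).

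Genes with a higher response than in KD1 included Tgfbi, a matrix protein induced by TGF-beta. It read 11.36 in RA KD2 replicate 1, against 10.44 and 9.94 in KD1 RA, and 8.49 in ESC KD2 replicate 1, against 9.98 and 10.48 in KD1 ESC (difference 2.91, SE 0.35, adjusted p = 0.00531). Lefty1, the Nodal antagonist, stayed at 9.22 in RA KD2 replicate 1, against 6.85 and 6.53 in KD1 RA (difference 2.35, adjusted p = 0.0230). Esrp1 differed the other way, with a fall of 3.26 in KD2 and a difference of -2.61 (adjusted p = 0.00280) from KD1. Hoxb2 rose more in KD2 than in KD1, by 1.47 (adjusted p = 0.0409), and was 1 of 3 Hox genes with a higher response than in KD1.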

How the data were processed

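The deposited values are log2 signals, 1 a probe set and array, which the authors obtained with RMA (the submitters' processing notes name the tool and give no version). The RNA input was 300 ng an array, labelled with biotin as cRNA, per the labels. The table held 35556 probe sets; the platform annotation gave 1 gene symbol for 21789, several for 1621 and did not list 12146. Each gene was its brightest probe set with 1 symbol (19938 genes, 19856 with a gene ID in RefSeq GRCm38.p6). Array medians lay between 7.17 and 7.24, and the number of arrays limits the precision.

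Limma 3.58.1 (R 4.3.3) fitted 6 group means to 10 arrays, with an intensity trend in the moderation, leaving 4 residual and 4.93 prior degrees of freedom. The contrasts were RA KD2 replicate 1 minus ESC KD2 replicate 1, and that response minus the scrambled and the KD1 response. Benjamini-Hochberg adjustment ran over all 19938 genes, with calls below 0.05. They measure spread between arrays labelled as biological replicates of 1 line. Tested on simulated data of 19938 genes for the RA against ESC contrast in KD2, the fit recovered 52 of 100 genes changed by 1 log2 unit and 92 of 100 changed by 2, with 7 false calls. The simulation gave the lone KD2 arrays the spread of the scrambled and KD1 groups, so it cannot check whether KD2 varies like them. It also changed far fewer genes than were called in the data, so its rates need not carry over. Motifs were counted and lists summarised in Python 3.11.15, and figures drawn with matplotlib 3.10.9.

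The members, the 29 gene lists and the rules were chosen with earlier results of these data known. Named genes were Set; the 15 largest called changes each way whose brighter array reached 7.22; the 8 largest called differences each way against scrambled cells and against KD1; and up to 4 called members of each list (up to 10 for the retinoid and naive lists). Predicted genes were left out. Replicate numbers did not pair the arrays across states: replicate differences correlated between -0.0193 and 0.068 over scrambled and KD1 groups. Between ESC KD2 and RA KD2 they correlated at -0.864. Both KD2 replicate 2 arrays resemble the other state, so that value does not bear on pairing. Alternatives are listed in the closing section.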

Additional observations from a re-analysis of the deposited data

Results flagged for a closer look

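Responses that differed between lines by a test of the difference itself were singled out. The RA response of KD2 minus that of scrambled cells was higher for 10 genes and lower for 60. The largest positive differences, on the log2 scale, were those of Dnajc5g (2.85), Serpinb6c (2.54), Tex14 (1.81), Slc13a5 (1.77), Wfikkn1 (1.66), Laptm5 (1.54), Chrna3 (1.46) and Lama1 (1.42). The largest negative ones were those of Tgfb2 (-2.85), Slc40a1 (-2.76), Hoxb13 (-2.65), Mamdc2 (-2.52), Zim1 (-2.46), Tbx18 (-2.42), Hs6st2 (-2.23) and Efemp1 (-2.19). All 16 had the same sign in the exchanged pair, which was set against the same scrambled arrays and is no independent check. For Dnajc5g, KD2 replicate 1 minus scrambled cells was -3.12 in ESC and -0.275 in RA.

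The RA response of KD2 minus that of KD1 was higher for 47 genes and lower for 289. It was highest for Tgfbi (2.91), Atp2a3 (2.66), Myl4 (2.64), Lefty1 (2.35), Sfrp1 (2.00), Igsf21 (1.89), Stmn2 (1.76) and Wfikkn1 (1.72). It was lowest for Slc6a15 (-4.01), Glipr1 (-3.74), Klb (-3.44), Ptk6 (-3.37), Nefl (-3.35), Chst15 (-3.30), Cemip (-3.30) and Fst (-3.25). KD2 is 1 array a state in each of these differences. Groups of 2 arrays are too small for a check of single outlying arrays.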

How the results depend on the processing

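With all 12 arrays as labelled, 0 genes were called higher and 0 lower in KD2 by limma, 0 and 4 differed from scrambled cells and 10 and 122 from KD1, and the mean of the labelled arrays was at least 2-fold higher for 3 genes and at least 2-fold lower for 0. This alternative takes both KD2 replicate 2 arrays under their labels, and a further 115 named gene values lost their call in it. The replicate 2 pair alone as labelled gave 733 genes at least 2-fold higher and 1147 lower, and all 151 named genes called in replicate 1 had the opposite sign in it. The mean difference as labelled had the opposite sign for Rarb (-0.12), Meis1 (-0.17), Meis2 (-0.41), Hoxc8 (-0.0033), Nrp1 (-0.31), Tshz1 (-0.0904), Trh (0.17), Liph (0.0499), Tcl1 (0.20), Otx2 (0.49), Dnajc5g (0.56), Serpinb6c (0.40), Slc13a5 (0.31), Chrna3 (-0.098), Lama1 (-0.098), Tgfb2 (-0.44), Slc40a1 (-0.29), Tbx18 (-0.32), Hs6st2 (-0.54), Efemp1 (-0.21), Tgfbi (-0.026), Atp2a3 (0.24), Igsf21 (0.073), Glipr1 (-0.40), Klb (-0.27), Ptk6 (-0.17), Chst15 (-0.23), Cemip (-0.23), Fst (-0.25), Fgf4 (0.20), Dppa3 (0.38), Esrrb (0.045), Dhrs3 (-0.00067), Nr2f1 (-0.28), Crabp2 (-0.37), Pknox2 (-0.056), Meis3 (-0.15), Irx3 (-0.034), Osr1 (-0.32), Foxc2 (-0.18), Pdgfra (-0.10), Wt1 (-0.12), Plat (-0.13), Gata6 (-0.11), Cubn (-0.25), Tfap2c (0.17), Tnc (-0.42), Dcn (-0.29), Cnn1 (-0.20), Cald1 (-0.13), Epcam (0.055), Dsc2 (-0.16), Spry4 (0.12), Bmp2 (-0.47), Bmper (-0.11), Lgr5 (-0.15), Wnt5a (-0.21), Sycp3 (0.34), Tek (0.20), Gata1 (0.056), Pfkp (0.25), Dlk1 (-0.54), Plagl1 (-0.072) and Tet3 (-0.019). Against scrambled cells it turned for Wfikkn1 (-0.71), Chrna3 (-0.45) and Lama1 (-0.42). Slc40a1, not called, stood at -0.036 with quantile normalization again and at -0.0901 with median centring. With the replicate 2 arrays exchanged, the means were at least 2-fold higher for 1123 genes and lower for 691, and the exchanged pair alone, an alternative added after seeing the data, gave 1147 and 733.

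A fold of at least 2 besides the call left 1104 and 741 genes. A filter on dim genes left 33 genes lower than in scrambled cells. The replicate block gave 2534 genes higher and 2315 lower between states, 18 and 116 against scrambled cells and 78 and 380 against KD1; within each state it gave 2866 and 2798, 110 and 501, and 380 and 1053. Replicate differences of scrambled and KD1 correlated at 0.633 in ESC and 0.15 in RA, and each of these groups with KD2 between 0.141 and 0.251. The values with KD2 do not bear on pairing, since both KD2 replicate 2 arrays resemble the other state. KD2 has 1 array a state in these fits. Across states scrambled and KD1 gave -0.0193 to 0.068. In ESC, scrambled and KD1 thus shared part of their replicate difference (0.633), and the main fit does not take it out. That fit sets ESC KD2 replicate 1 beside means of both replicates of the other lines. How much of the called differences comes from this was not tested. With 2 arrays a group and no shared day in the labels, whether the numbers mark pairs in RA or in KD2 was not settled. Leaving out each scrambled or KD1 array in turn gave 1670 to 2649 genes higher and 1381 to 2312 lower between states, 2 to 36 and 7 to 101 against scrambled cells, and 5 to 109 and 72 to 437 against KD1. Without RA KD1 replicate 2, 25 named gene values lost their call, the most of any array left out. The causes were not tested. Averaging probe sets, quantile normalization, median centring, moderation without a trend and robust moderation kept every count within 1.5 times. The lone KD2 array of each state limits what the tests can show, since its own spread was not measured.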
